A study of Mus musculus with 6 samples.

Results

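The 47 genes described here encode the contractile, calcium-handling and load-bearing proteins of adult skeletal muscle fibres. They were chosen by symbol from a fixed list, and all 47 were found among the 53819 gene symbols of both deposited tables. The libraries came from healing flexor digitorum longus (FDL) tendons of mice that carried 1 floxed diphtheria toxin receptor (DTR) allele and that all received 5 injections of diphtheria toxin (DT). In 3 libraries the mice also carried Scx-Cre (Scx-Cre+; DTR F/+, called DTRScxLin), and in 3 they were Cre-negative littermates (Scx-Cre-; DTR F/+, called WT). Each library was made from 1 tendon harvested 28 days after transection and repair. Mice were 10 to 12 weeks old at surgery, and DT was given from day 14 to day 18. Scx-Cre is constitutive, so the receptor marks every cell with Scx-Cre activity at any age, and the controls had the receptor allele without Cre. The surgery also cut the tendon at the myotendinous junction, where the FDL muscle joins the tendon. The sample titles call this time D28 post-depletion and the protocol D28 after surgery. Counts summed to between 42744138 and 48854310 per library, and single libraries are given below in the order replicate 1, replicate 2, replicate 3.

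Acta1, Ckm, Ttn, Myh4, Atp2a1, Ryr1 and Cacna1s were taken as the 7 defining genes of muscle fibres, and all were detected in every library. The lowest value was 825 normalized counts, for Cacna1s in DTRScxLin replicate 1. These 7 are members themselves, so they show that muscle transcripts were present and do not test the label independently.

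A sarcomere pulls when myosin heads on the thick filament walk along actin. Calcium that the ryanodine receptor releases from the sarcoplasmic reticulum binds troponin C and frees the thin filament, and a calcium pump then returns the ion. Many of these proteins exist as fast-fibre and slow-fibre isoforms made from separate genes, and several slow isoforms are also made by immature or regenerating fibres and by the heart. Tenocytes do not build sarcomeres, so in a dissected tendon such transcripts are known mainly from attached muscle fibres. The 47 genes were divided into 14 fast, 10 slow and 23 that were not assigned to a fibre type.

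The members together held 3.31%, 3.11% and 2.48% of all gene counts in the WT libraries. In the DTRScxLin libraries they held 0.442%, 3.01% and 0.827%. DTRScxLin replicates 1 and 3 were thus far below every WT library, while DTRScxLin replicate 2 lay within the WT range. The WT mean was 2.97% ± 0.433 and the DTRScxLin mean 1.43% ± 1.39 (SD, n = 3 each), which did not separate beyond the spread of the libraries (p = 0.2, two-sided exact permutation test, in which 3 against 3 libraries cannot give less than 0.1). In whole-tendon RNA, fewer muscle fibres and less muscle RNA per fibre cannot be told apart. The fast members took 1.84%, 1.54% and 1.27% in WT and 0.22%, 1.57% and 0.403% in DTRScxLin. The slow members took 0.191%, 0.259% and 0.158% in WT and 0.0354%, 0.23% and 0.0671% in DTRScxLin. Both classes therefore had the same order of libraries within DTRScxLin, with replicate 1 lowest and replicate 2 highest. Mybpc1 had the most counts of the slow members in every library, so the slow share leans on this gene. Its raw counts were 50645, 54154 and 33833 in WT and 5947, 41830 and 10314 in DTRScxLin.

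**Figure D1:**
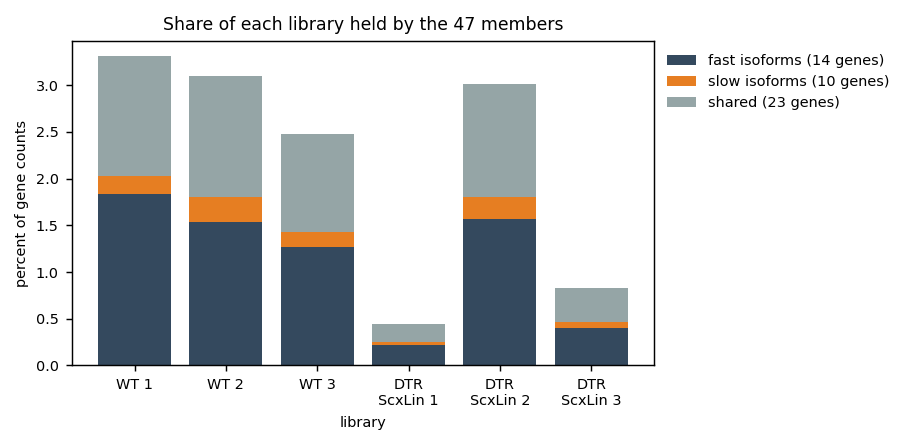
Stacked bars give the percent of all gene counts held by the 14 fast, 10 slow and 23 shared members in each of the 6 libraries. DTRScxLin replicate 2, at 3.01%, stands beside the WT libraries (2.48% to 3.31%), and DTRScxLin replicates 1 and 3 stand at 0.442% and 0.827%.

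Transcripts of several other tissues also differed between libraries. A list of 40 further genes drawn up for muscle fibres, none of them a member, was summed in the same way. It held 0.434%, 0.407% and 0.305% of WT and 0.0593%, 0.341% and 0.107% of DTRScxLin counts, the same order as the members. Of the 40, Amdhd1 did not pass the filter on low counts, and whether it is a muscle fibre gene was not tested. A list of 12 keratinocyte genes held 0.328% and 0.205% of WT replicates 1 and 2 but only 0.00157% of WT replicate 3 and 0.00129% to 0.0307% of the DTRScxLin libraries. A list of 10 Schwann cell genes ranged from 0.0628% to 0.116% in WT and from 0.0455% to 0.0794% in DTRScxLin. The 10 adipocyte genes ranged from 0.0265% to 0.0324% in WT and from 0.0166% to 0.028% in DTRScxLin, and 7 of them were lower in every DTRScxLin library than in any WT library, where 7.85% of all genes tested were. The 10 tendon genes ranged from 3.82% to 4.51% in WT and from 4.28% to 5.55% in DTRScxLin. The 8 smooth muscle genes ranged from 0.0945% to 0.144% in WT and from 0.0713% to 0.0981% in DTRScxLin, with none of the 8 at 0. The 10 endothelial genes overlapped between groups, at 0.0705% to 0.0894% in WT and 0.0687% to 0.0829% in DTRScxLin. So did the 10 macrophage genes, at 0.373% to 0.455% in WT and 0.403% to 0.443% in DTRScxLin. The part of these tissues in the results below was not tested. Of 10 heart markers, Nppa, Nppb, Myl7, Tbx5 and Nkx2-5 did not pass the filter on low counts. Myh6, the heart's main myosin, ranged from 63.4 to 114 normalized counts in WT and from 4.11 to 51.6 in DTRScxLin. Ryr2 ranged from 57.8 to 86.2 in WT and from 19.5 to 52.5 in DTRScxLin, and Tnni3k reached at most 14.4. Tnni3 (147.8 to 201.6 in WT, 107.1 to 172.6 in DTRScxLin) and Hcn4 (352.1 to 578 and 104.1 to 455.1) were higher than Myh6, and their groups overlapped.

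Every member passed the filter on low counts. In edgeR's quasi-likelihood test with Benjamini-Hochberg adjustment over 17496 genes, 0 of the 47 had an adjusted p under 0.05 (range 0.46 to 0.98), and 0 of the 47 had an unadjusted p under 0.05. Over all genes tested the adjusted test called 0% in either direction, and at an unadjusted p under 0.05 it found 5.45% lower and 5.52% higher. DESeq2 called 0 members as well, where it called 1.53% of all genes lower and 1.12% higher, and it gave Mb no p-value. The fitted log2 fold change (DTRScxLin over WT) was below 0 for 44 of the 47 members, where 48.5% of all genes were fitted lower. Its median was -0.92 over the members and 0.0082 over all genes. It was -1.05 over the fast members, all 14 of which were fitted lower, and -0.56 over the slow members, of which 8 of 10 were. Without DTRScxLin replicate 2, edgeR called 23 members lower and 0 higher, where 2.45% of all genes were called lower, and the member median was -2.21. Of all genes 0.572% were called higher in that fit. Each library was left out in turn, and this one is singled out because leaving it out moved the count, so those 23 calls describe the remaining 5 libraries. They were 10 fast members, 12 shared members and the slow Mybpc1. Of the 39 other muscle fibre genes tested, 24 were called lower in the same fit, with a median of -2.15.

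**Figure D2:**
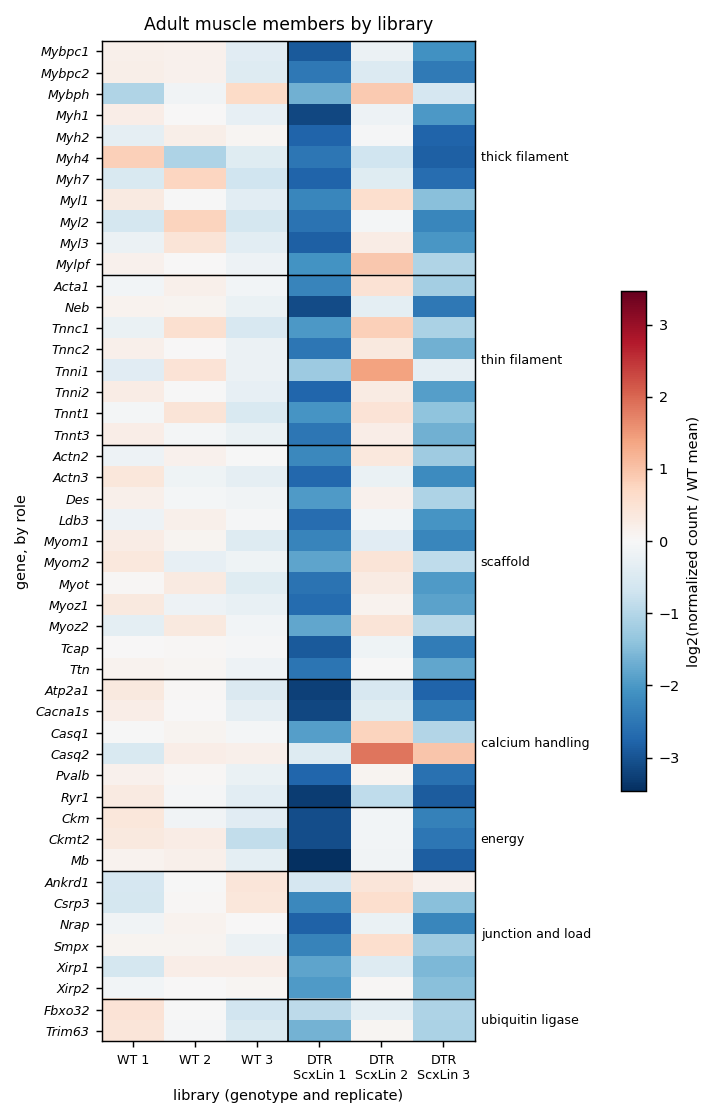
Colour gives the log2 ratio of each member's normalized count to its WT mean, with genes in rows by role and the 6 libraries in columns. The columns of DTRScxLin replicates 1 and 3 are low for nearly every gene (medians -2.50 and -1.865), and that of replicate 2 (median 0.08) mixes higher and lower genes.

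In 43 of the 47 members, DTRScxLin replicates 1 and 3 were both below every WT library, against 17.2% of all genes tested. The 4 exceptions were Tnni1, Casq2, Mybph and Ankrd1. Replicates 1 and 3 are the libraries with the low member shares above, so this count restates those shares gene by gene. The members vary together across libraries and are not separate pieces of support. DTRScxLin replicate 2 lay within the WT range for 23 members, above it for 17 and below it for 7. Over all genes this library was above every WT library in 28.3% and below every one in 27.9%. It was above WT for 6 of the 10 slow, 5 of the 14 fast and 6 of the 23 shared members, and below for 0, 2 and 5. The 7 members below WT in all 3 DTRScxLin libraries were Ryr1, Cacna1s, Atp2a1, Neb, Nrap, Tcap and Mybpc2, where 7.85% of all genes were lower without overlap. No member was higher in all 3, where 8.96% of all genes were. Of the 39 other muscle fibre genes tested, 10 were lower and 0 higher without overlap.

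**Figure D3:**
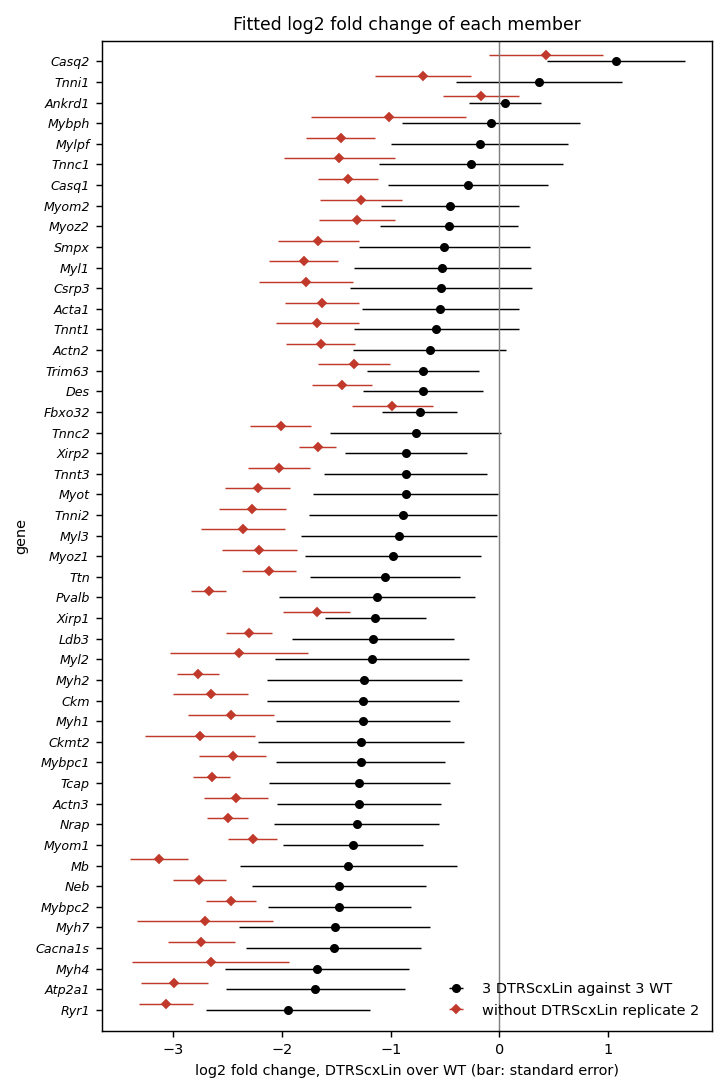
Points give each member's fitted log2 fold change (DTRScxLin over WT) with its standard error, over all 6 libraries in black and without DTRScxLin replicate 2 in red. With 6 libraries the values run from -1.94 (Ryr1) to 1.07 (Casq2), and without that replicate only Casq2 stays above 0.

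The thick filament is built of myosin. Myh1 encodes the fast IIx heavy chain and was the most abundant of the adult heavy chains, at 24700 ± 4340 normalized counts per kilobase of exon in WT (SD, n = 3). Myh2, the fast IIa chain, had 10100 ± 1750 and Myh4, the fast IIb chain, 7660 ± 5240 on the same per-length scale, so that Myh2 and Myh4 did not differ beyond their spread. Myh7, the slow chain, was lowest at 1340 ± 796. As a count per library, Myh1 had normalized counts of 176617, 150978 and 123736 in WT and 16781, 134348 and 37622 in DTRScxLin. Replicate 2 of DTRScxLin was inside the WT range and the other replicates were not (log2 fold change -1.26, standard error 0.80). Myh2 had 50059, 70961 and 64165 in WT and 8956, 60246 and 9066 in DTRScxLin (-1.24, standard error 0.90). Myh4 had 81675, 21882 and 34609.5 in WT and 8075, 28572 and 6517 in DTRScxLin (-1.68, standard error 0.84). The value of WT replicate 1 exceeded the sum of the other WT libraries, and Myh4 had the widest spread of the members within WT relative to its mean. Myh7 had 5877, 14216 and 5197 in WT and 1226, 6266 and 1344 in DTRScxLin (-1.52, standard error 0.88), with WT replicate 2 standing high.

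The balance of the adult heavy chains within a library overlapped between the groups. Per length, Myh1 made up 56.1%, 58.6% and 54.3% of the 4 adult chains in WT and 47.8%, 58.5% and 68.9% in DTRScxLin. Myh4 made up 26.2%, 8.59% and 15.4% in WT and 23.3%, 12.6% and 12.1% in DTRScxLin. Myh2 made up 15.9%, 27.5% and 28.2% in WT and 25.5%, 26.3% and 16.6% in DTRScxLin. Myh7 made up 1.8%, 5.32% and 2.2% in WT and 3.37%, 2.63% and 2.37% in DTRScxLin. No chain separated WT from DTRScxLin (exact permutation p from 0.6 to 1, adjusted over the 4 to 1). These heavy chain genes resemble each other in sequence: 25.4% of the 50-base words in Myh1 transcripts, 22.9% in Myh2, 18.9% in Myh4 and 15.6% in Myh7 also occur in another gene, so reads could have been split or dropped between them.

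The myosin light chains and binding proteins did not all follow the heavy chains. Mylpf, the fast regulatory light chain, had normalized counts of 57063, 51469.8 and 45263 in WT and 12276, 98318 and 24943 in DTRScxLin, so that 1 DTRScxLin library was above and the others below all WT libraries (-0.18, standard error 0.81). Myl1, the fast essential light chain, had 55872, 44197 and 34865 in WT and 9386, 67928 and 16373 in DTRScxLin (-0.53, standard error 0.81). Of the 50-base words in Myl1 transcripts, 11.7% are shared with another gene, most with a pseudogene. The slow and cardiac regulatory chain Myl2 had 2999.5, 7811 and 2999.8 in WT and 783, 4376 and 968 in DTRScxLin (-1.17, standard error 0.89). The slow essential chain Myl3 had 917, 1446 and 823 in WT and 149, 1267 and 264 in DTRScxLin (-0.92, standard error 0.90). WT replicate 2 was the highest WT library for both slow chains, as it was for Myh7. Mybpc1, the slow myosin-binding protein C, had 51390.5, 50978 and 35155 in WT and 6127, 40001 and 10595 in DTRScxLin. Mybpc2, its fast counterpart, had 1042, 1013 and 664 in WT and 162, 649 and 165 in DTRScxLin, without overlap (-1.48, standard error 0.66, edgeR adjusted p = 0.485). Mybph, a related binding protein, had 1012, 1909 and 3284 in WT and 652, 3845 and 1389 in DTRScxLin, with a wide spread in both groups (-0.08, standard error 0.82).

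On the thin filament, Acta1, the skeletal alpha-actin, was the most abundant member per length, at 74500 ± 8180 normalized counts per kilobase of exon in WT (SD, n = 3). Its counts were 100779, 121391 and 101049 in WT and 21987, 152649.9 and 47294 in DTRScxLin (-0.54, standard error 0.73). Neb, the giant protein that runs along the thin filament, had 81812, 80910.3 and 64103 in WT and 8739, 59292 and 13531 in DTRScxLin, and the groups did not overlap (-1.48, standard error 0.80, edgeR adjusted p = 0.538). The troponins sense calcium and hold the filament off. The fast inhibitory subunit Tnni2 had 39212, 32315 and 26779 in WT and 4889, 39664 and 8666 in DTRScxLin (-0.89, standard error 0.86). The slow inhibitory subunit Tnni1 had 3486, 6339.9 and 3955 in WT and 1916, 12091 and 3728 in DTRScxLin, so that DTRScxLin replicate 2 was above every WT library and replicate 3 was inside the WT range (0.36, standard error 0.77). The fast calcium-binding subunit Tnnc2 had 48684, 43739.5 and 37347 in WT and 7655, 54591 and 13758 in DTRScxLin, and the slow Tnnc1 had 6408, 10972 and 5097 in WT and 1877, 13367 and 3516 in DTRScxLin. The tropomyosin-binding subunits were Tnnt3 (fast), with 88270.5, 72031 and 64466 in WT and 13255, 87073 and 23443 in DTRScxLin, and Tnnt1 (slow), with 9055, 12775 and 6506 in WT and 2305, 13039.9 and 3608 in DTRScxLin. For all troponin genes other than Tnnt3, DTRScxLin replicate 2 was the highest of the 6 libraries.

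Calcium handling held the most extreme members in both directions. Ryr1, the calcium release channel, had normalized counts of 23009, 17788 and 14395 in WT and 1889.5, 9964 and 2495 in DTRScxLin. Every DTRScxLin library was below every WT library, and the log2 fold change of -1.94 was the most negative of the 47 (standard error 0.76, edgeR adjusted p = 0.46). Cacna1s, the voltage sensor that opens Ryr1, had 8735, 7527 and 6007 in WT and 825, 5526 and 1392 in DTRScxLin, without overlap (-1.52, standard error 0.80). Atp2a1, the fast-fibre calcium pump, had 180267, 146158 and 100034 in WT and 14996, 96069 and 20657 in DTRScxLin, again without overlap (-1.69, standard error 0.82). In DTRScxLin replicate 2, whose muscle share matched WT, the ratio to the WT mean was 0.542 for Ryr1, 0.745 for Cacna1s and 0.676 for Atp2a1. The calcium store proteins were placed differently. Casq1, the fast calsequestrin, had 13023, 14149 and 12634 in WT and 3508, 22520.5 and 6595 in DTRScxLin (-0.29, standard error 0.73). Casq2, the slow and cardiac calsequestrin, had 518, 883 and 838 in WT and 548, 2697 and 1465 in DTRScxLin, the highest log2 fold change of the members (1.07, standard error 0.63, edgeR adjusted p = 0.569). In DTRScxLin replicate 2 its ratio to the WT mean was 3.61, and in replicate 1 it was inside the WT range. Pvalb, the soluble calcium buffer of fast fibres, had 23346, 21672 and 17928 in WT and 3103, 22242 and 3459.8 in DTRScxLin (-1.13, standard error 0.90).

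The promoters of both calsequestrin genes and of Tnni1 are shown because Casq2 and Tnni1 had the highest fold changes of the list and Casq1 is the fast partner of Casq2. They are RefSeq sequences of build GRCm38.p6, 300 bases each, from 250 before to 50 after the annotated start, with capitals marking E-boxes (CANNTG, the letters bound by myogenic helix-loop-helix factors). Casq1 lies at chr1:172219846-172220145 on the minus strand, Casq2 at chr3:102086165-102086464 on the plus strand and Tnni1, in the more upstream of its 2 annotated windows, at chr1:135799171-135799470 on the plus strand.
Casq1: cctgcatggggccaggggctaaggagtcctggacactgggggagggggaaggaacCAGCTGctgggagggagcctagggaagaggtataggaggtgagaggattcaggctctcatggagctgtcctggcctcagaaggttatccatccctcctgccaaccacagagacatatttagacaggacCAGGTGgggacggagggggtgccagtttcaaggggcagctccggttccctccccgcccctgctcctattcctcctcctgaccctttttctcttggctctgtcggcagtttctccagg
Casq2: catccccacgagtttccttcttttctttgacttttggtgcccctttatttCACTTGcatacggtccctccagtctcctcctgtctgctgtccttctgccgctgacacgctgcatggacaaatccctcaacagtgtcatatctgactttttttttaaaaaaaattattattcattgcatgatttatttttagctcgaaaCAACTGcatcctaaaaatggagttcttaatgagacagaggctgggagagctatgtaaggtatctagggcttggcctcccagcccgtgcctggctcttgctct
Tnni1: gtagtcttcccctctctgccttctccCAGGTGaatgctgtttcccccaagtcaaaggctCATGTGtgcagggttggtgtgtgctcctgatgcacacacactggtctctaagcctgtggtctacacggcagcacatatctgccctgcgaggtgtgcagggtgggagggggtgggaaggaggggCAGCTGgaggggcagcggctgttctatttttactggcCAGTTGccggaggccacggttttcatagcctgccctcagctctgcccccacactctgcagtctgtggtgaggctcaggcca
Casq1 and Casq2 held 2 E-boxes each. The Tnni1 window shown held 4 and its other annotated window held 2. A promoter was found for 37 of the 47 members, and 32 of the 37 held an E-box on either strand, where 75% of all 27025 genes with a promoter did. The narrower CAGCTG, which is contained in the E-box pattern, was in 18 of the 37 members and in 18.3% of all genes, and it was in 5 of the 10 fast and 4 of the 10 slow members with a promoter. The MCAT letters CATTCC were in 13 of the 37 members and in 16.6% of all genes, and the MEF2-like pattern CTA, 4 bases of any kind, TAG was in 6 of the 37 and in 4.23%. TATAAA was in 9 of the 37 members and in 15.7% of all genes. The pattern CC, 6 bases of any kind, GG was in 32 of the 37 and in 75.1%. That pattern is looser than the site bound by SRF, so its count is not a count of SRF sites. All patterns were searched on both strands.

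Scaffold proteins hold the filaments in register. Titin (Ttn), the molecular spring of the sarcomere, had normalized counts of 98495, 95098 and 80370.3 in WT and 15674, 90309.7 and 26309 in DTRScxLin (-1.05, standard error 0.69). Tcap, the titin cap at the Z-disc, had the smallest spread of the members within WT relative to its mean, with 17252, 17651 and 16851, and had 2294, 15697 and 3207 in DTRScxLin, without overlap. The Z-disc crosslinkers were Actn2, with a log2 fold change of -0.64, and the fast-fibre Actn3, with -1.29. The Z-disc genes Ldb3 and Myot had -1.16 and -0.86. Calsarcins bind calcineurin at the Z-disc: the fast Myoz1 had 8338, 5844 and 5446 in WT and 1031, 7139.6 and 1796 in DTRScxLin, and the slow Myoz2 had 1975, 3145 and 2351 in WT and 717, 3417 and 1290.3 in DTRScxLin. The M-band proteins Myom1 and Myom2 had log2 fold changes of -1.35 and -0.45. Desmin (Des), the intermediate filament of all muscle types, was at -0.70. All 11 scaffold members were fitted lower, with standard errors from 0.55 to 0.86, and DTRScxLin replicates 1 and 3 were below every WT library in each.

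The 3 members of energy supply were all fitted lower. Ckm, the muscle creatine kinase, had normalized counts of 66815, 46299 and 38285 in WT and 6030.1, 47407 and 9953 in DTRScxLin (-1.26, standard error 0.88). Ckmt2, its mitochondrial partner, was at -1.27 (standard error 0.95). Myoglobin (Mb), the oxygen store, had 61697, 64039 and 44476 in WT and 5128, 52018 and 7826 in DTRScxLin (-1.39, standard error 1.00). For all 3 genes, replicate 2 was the single DTRScxLin library in the WT range.

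Proteins of fibre ends and of load sensing split. Nrap, an anchor of actin at the myotendinous junction, had 17720.0, 20961 and 19461 in WT and 2795, 16553 and 4042 in DTRScxLin, without overlap (-1.31, standard error 0.76, edgeR adjusted p = 0.56). The actin-binding Xirp1 had 1486, 2658 and 2643 in WT and 641, 1668 and 768 in DTRScxLin (-1.14, standard error 0.46), and Xirp2 had 13196, 14349.8 and 14776 in WT and 3647, 14468 and 5199 in DTRScxLin. Smpx, a small cytoskeletal protein, had 6248, 6169.6 and 5057 in WT and 1172, 8641 and 2490.1 in DTRScxLin. Csrp3, the muscle LIM protein, had 4817, 7536 and 9621 in WT and 1559.8, 10871 and 2696 in DTRScxLin (-0.54, standard error 0.83). Ankrd1, a stretch-induced titin partner, showed no separation, with 371, 546 and 736 in WT and 369, 737 and 610.2 in DTRScxLin (0.05, standard error 0.33, edgeR adjusted p = 0.966). It was the least abundant member per length in WT apart from Mybpc2, at 273 ± 90.2 normalized counts per kilobase of exon (SD, n = 3). The ubiquitin ligases that mark muscle protein for breakdown were also spread within WT. Fbxo32 (atrogin-1) had 4539.9, 3234 and 2067 in WT and 1743, 2611 and 1569 in DTRScxLin (-0.73, standard error 0.35). Trim63 (MuRF1) had 1180.1, 857 and 606 in WT and 284, 929 and 411 in DTRScxLin (-0.70, standard error 0.52).

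Slow and fast isoforms were compared as the log2 ratio of their counts within a library. Averaged over 9 slow and fast pairs, the ratio was -2.75, -1.60 and -2.27 for WT and -1.84, -1.90 and -1.72 for DTRScxLin. The difference of 0.388 (DTRScxLin minus WT) was smaller than the WT standard deviation of 0.58, and the groups overlapped (two-sided exact permutation p = 0.4). Without WT replicate 1 it was 0.114 and without WT replicate 2 it was 0.693. Only 2 of the 9 pairs separated, both with the slow isoform higher in DTRScxLin. Casq2 over Casq1 was -4.65, -4.00 and -3.91 in WT and -2.68, -3.06 and -2.17 in DTRScxLin, a difference of 1.55. Tnni1 over Tnni2 was -3.49, -2.35 and -2.76 in WT and -1.35, -1.71 and -1.22 in DTRScxLin, a difference of 1.44. Both had an exact permutation p = 0.1, the smallest that 3 against 3 allows, and 0.36 adjusted over the 9 pairs, so neither can pass a threshold of 0.05 in this design. The others differed by less or with overlap: 0.71 for Myoz2 over Myoz1, 0.59 for Tnnc1 over Tnnc2, 0.38 for Tnnt1 over Tnnt3, 0.06 for Mybpc1 over Mybpc2, -0.01 for Myh7 over Myh4, -0.47 for Myl3 over Myl1 and -0.75 for Myl2 over Mylpf. The ratio of the slow myosin chains to their fast partners was thus level or lower in DTRScxLin, with overlap. Mybpc1 over Mybpc2 was above 0 in every library (WT mean 5.67), while every other pair was below 0 in every library. Whether Mybpc1 marks slow fibres in these tendons was not tested. Xist, which marks female tissue, reached 49303 counts or more in WT replicate 2 and DTRScxLin replicates 2 and 3, and no more than 4 elsewhere. The labels give no sex, and by this mark it was not balanced between the groups. The part of sex in these ratios, and in every other comparison of DTRScxLin with WT given here, was not tested.

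**Figure D4:**
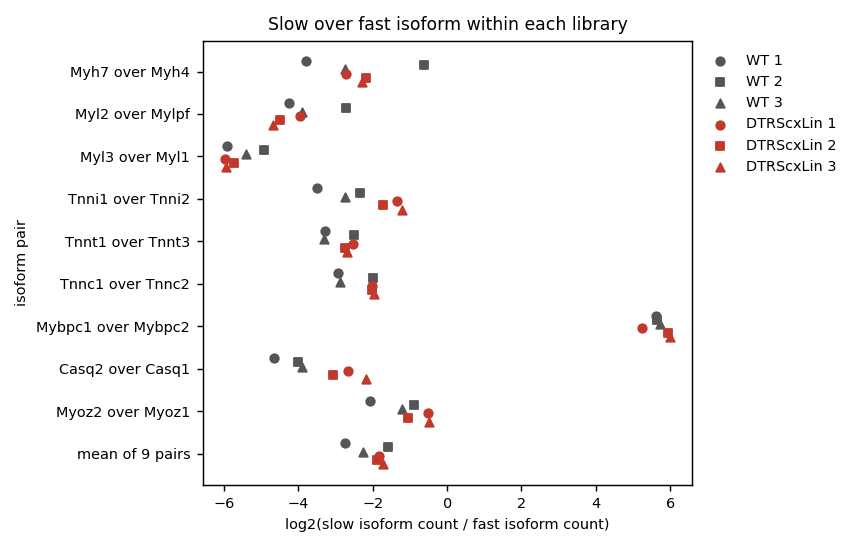
Each row gives the log2 ratio of the slow to the fast isoform's count in the 6 libraries, for 9 pairs and their mean. Red DTRScxLin points lie to the right of all grey WT points for Tnni1 over Tnni2 and for Casq2 over Casq1, and mix with them in the other rows.

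To see which members departed from the level of muscle transcripts as a whole, each was also expressed relative to the summed level of the 40 other muscle genes. In normalized counts, that sum came to 198790, 182315 and 139579 for WT and to 28775, 159384 and 47058 for DTRScxLin. On this scale the median difference between groups (DTRScxLin minus WT, log2) was 0.07 over the members. In 13 members every DTRScxLin library was above every WT library, and in 5 every one was below. The 5 lower were Ryr1 (-0.81), Atp2a1 (-0.64), Cacna1s (-0.47), Neb (-0.46) and Mybpc1 (-0.20). The 13 higher were Casq2 (2.35), Tnni1 (1.51), Tnnc1 (0.84), Mylpf (0.80), Casq1 (0.80), Myom2 (0.79), Myoz2 (0.78), Tnnt1 (0.59), Des (0.56), Smpx (0.53), Acta1 (0.53), Myl1 (0.50) and Actn2 (0.49). These were 5 slow, 3 fast and 5 shared members, and the 5 lower were 1 slow, 1 fast and 3 shared. Exon length ran from 3477 (Atp2a1) to 24019 bases (Neb) in the 5 lower and from 721 (Tnnc1) to 5075 (Myom2) in the 13 higher. The longest member, Ttn (113588 bases), was at 0.07 with overlap. RNA integrity numbers were 7.73 ± 0.22 over all samples (mean ± SD). The part of transcript length and RNA quality in this split was not tested. Of all 17496 genes, 17.9% were higher and 0.429% lower without overlap on this scale, on which the median of all genes is shifted by 1.52. Among the 39 other muscle genes tested, 10 were higher and 8 lower. The part of transcripts from cells other than muscle fibres in these ratios was not tested.

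**Figure D5:**
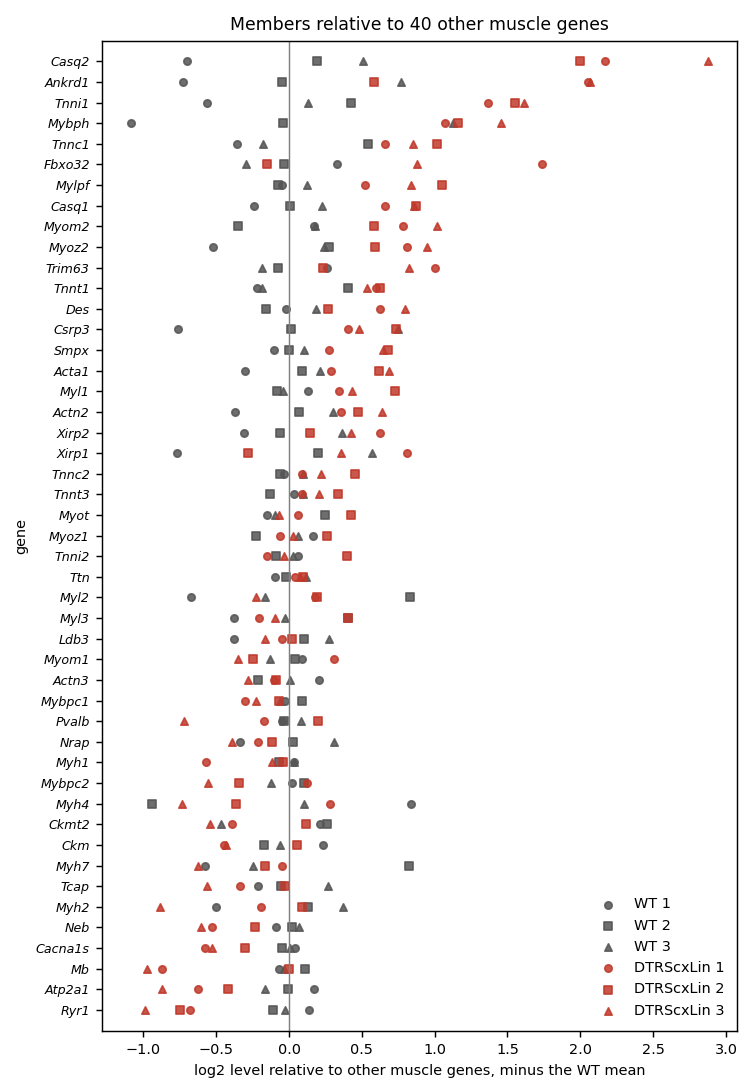
Points give each member's log2 level relative to the sum of 40 other muscle genes, minus its WT mean, in the 6 libraries, with WT grey and DTRScxLin red. Casq2 and Tnni1 lie furthest right without overlap (2.35 and 1.51 between group means), and Ryr1 lies furthest left (-0.81).

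Other genes of muscle gave the surroundings of this list. Of the 39 other fibre genes tested, all 39 were fitted lower, with a median log2 fold change of -1.05 and 0 called by edgeR. At an unadjusted p under 0.05 in edgeR, 2 were lower, where 5.45% of all genes were. The most abundant were Eno3, the muscle enolase (-1.13), and Pygm, the muscle glycogen phosphorylase (-1.83). The 16 embryonic and regeneration genes went the other way, with 12 fitted higher and 4 lower and a median of 0.63. Again edgeR called 0, with 2 higher and 1 lower at an unadjusted p under 0.05, where 5.52% and 5.45% of all genes were. DESeq2 called 2 higher, Myh3 and Mymk, where it called 1.12% of all genes higher. Mymk had a DESeq2 adjusted p of 0.0499, and its groups overlapped (120.5 in DTRScxLin replicate 1, 89.3 to 156.9 in WT). Myh3, the embryonic heavy chain, had normalized counts of 510.4, 1022 and 749 in WT and 1109, 4559.6 and 3669 in DTRScxLin, higher in every DTRScxLin library (2.03, standard error 0.62, edgeR adjusted p = 0.414, DESeq2 adjusted p = 0.0472). Of the 11 genes of the neuromuscular synapse, 10 were fitted lower (median -0.70), and edgeR called 0. At an unadjusted p under 0.05 in edgeR, 2 were lower, where 5.45% of all genes were. DESeq2 called 1 lower, where it called 1.53% of all genes lower. The called gene was Ache, the acetylcholinesterase of the synapse (DESeq2 adjusted p = 0.0108). The 8 genes of a myotendinous junction list, of which Nrap, Xirp1 and Ankrd1 are members, had a median of -0.30. Without overlap, 2 were lower and 1 higher, where 7.85% and 8.96% of all genes were. DESeq2 called 1 lower, where it called 1.53% of all genes lower. Groups overlapped for Lama2, the most abundant of the 8 (-0.02), for Itgb1bp2 (0.21) and for Tigd4 (-0.96). Col22a1, a collagen of that junction, had 823, 1586 and 1634 in WT and 2419, 2050.3 and 1766 in DTRScxLin, higher in every DTRScxLin library (0.62, standard error 0.28, edgeR adjusted p = 0.477, DESeq2 adjusted p = 0.172). Itga7, the muscle laminin receptor, had 3809, 4048 and 4036 in WT and 2162, 3055 and 2749 in DTRScxLin, lower in every one (-0.58, standard error 0.13, edgeR adjusted p = 0.274, DESeq2 adjusted p = 0.0095). Without DTRScxLin replicate 2, the edgeR adjusted p was 0.0306 for Itga7, 0.497 for Col22a1 and 0.372 for Myh3. That fit is the one that raised the number of calls, so these values describe only the remaining libraries.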

How the data were processed

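RNA was measured by single-end sequencing in 3 DTRScxLin and 3 WT tendons, 1 tendon per library, from 200 ng total RNA with a stranded mRNA kit. The labels also name a SMARTER kit. The authors cleaned reads with FastP, and deposited raw counts per gene made by featureCounts. The aligner, genome build, annotation and strand setting are not given in the sources used here, so reads of the 20 members that overlap a gene on the opposite strand in GENCODE M21 may be mixed. A second deposited signal table holds the same counts divided by 1 size factor per library (DESeq2 1.22.1 in the submitters' processing notes), from 0.9725 to 1.065, and this was checked for every gene. Groups came from the sample titles.

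In R 4.3.3, edgeR 4.0.16 (filterByExpr, TMM, robust quasi-likelihood test, genotype only) was applied to 17496 of 53819 genes, with Benjamini-Hochberg adjustment. The standard error is the absolute log2 fold change over the square root of F. Normalized counts are TMM-normalized at the mean effective library size. DESeq2 1.42.0 was an alternative. On simulated data of 17496 genes for this comparison, edgeR recovered 54 of 109 genes simulated with a log2 change of 1 and 71 of 86 with a change of 2. The 200 changed genes were drawn at random from all genes and varied independently. This recovery therefore does not give the power for the members, which vary together and had standard errors of up to 1.00. Single values were compared by exact permutation tests (scipy 1.17.1). Exon lengths and 50-base words came from GENCODE M21, and isoform ratios and muscle-scaled levels used a prior count of 0.5. Libraries of a group differed by more than counting noise (chi-square over degrees of freedom from 36.6 to 190), so none was counted as a duplicate, and the number of animals (n = 3) sets the precision. The members and lists were chosen with earlier results of these data known. All 47 members are named. Values in every library are given for the heavy chain, isoform pair, calcium, junction and ligase groups. The same holds for the 5 lowest and 5 highest fold changes. Other lists are given by counts, and only the list of other fibre genes by its most abundant genes. Genes singled out from the embryonic, synapse and junction lists were chosen after their values were seen. So were other examples beyond these rules, and values in every library for Acta1, Neb, Ttn, Tcap, Ckm and Mb. Protein sequences are not used here.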

Additional observations from a re-analysis of the deposited data

How the results depend on the processing

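Over all genes, edgeR called 0, against 466 by DESeq2 (269 lower), 83 without a filter on low counts and 1 with the replicate number as a block. Leaving out 1 library gave 0 to 544 calls, the highest without DTRScxLin replicate 2. For the members the count was 0 under DESeq2, RLE normalization, no filter and the replicate block, and 0 to 23 with 1 library left out. The median log2 fold change of the members, -0.92, was -1.45 with the replicate block and between -2.21 and -0.55 with 1 library left out, and 0.0749 relative to other muscle genes, where division by muscle content takes out a common shift by construction. The difference in the members' share of counts stayed between -2.33 and -1.05 percentage points with 1 library left out (-1.54 with all) and was -0.869 without the 5 most abundant members. The slow minus fast difference stayed between 0.114 and 0.693 and was 0.80 over the 3 troponin pairs. The 7 members without overlap were again 7 by library size, and the 18 relative to other muscle genes were the same 18 with a mean log2 reference, which was chosen after seeing the data. The replicate block turned the sign of Tnni1 (-0.0058). With 1 library left out, values crossed 0 for Mylpf (-1.46 to 0.26), Casq1 (-1.39 to 0.13), Tnni1 (-0.70 to 0.78), Tnnc1 (-1.47 to 0.17), Mybph (-1.02 to 0.42) and Ankrd1 (-0.17 to 0.32), and the cause was not tested. Deviations from the group mean were negatively correlated between libraries with the same number (-0.254, -0.205 and -0.732). This check cannot exclude a shared batch, and what such libraries share was not tested.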
